A study of Mus musculus with 8 samples.

Results

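Pdk4 and Hilpda are a pair of liver genes that respond to fasting and to fatty acid load. They are 2 of the 55416 rows in the count table, taken by gene symbol from a stretch of 314 rows on chromosome 6. The stretch was chosen by measured values: it is where genes that all cells use reach the counts their names call for. The pair itself was chosen with its earlier values in these libraries known, its genotype contrast and its joint variation included. Levels, fold changes and the relation of the 2 genes are therefore given as descriptions, and the outcome of the fit over all rows is stated beside them without being used as support.

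Poly-A RNA of livers was sequenced in 8 libraries numbered as biological replicates, 4 from Sost-/- mice and 4 from SostPB/- mice. Sclerostin, the product of Sost, is secreted and blocks Wnt receptors, and the series asks what overexpression of Sost does to the development of steatohepatitis. All 8 mice were on the MCD diet, which in the usual sense of the name lacks methionine and choline, and every mouse carried at least 1 Sost- allele by its genotype name. The meaning of PB is not spelled out by the submitters, nor are age, sex, strain or feeding state at collection stated in the labels. No mouse on another diet and no wild-type mouse is among the samples, so each value below is a level on this diet.

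Pyruvate dehydrogenase turns pyruvate into acetyl-CoA and so commits carbohydrate to oxidation. Pdk4 is a mitochondrial kinase that phosphorylates and switches off this complex, which spares glucose while fatty acids are burned. Its transcription in liver is raised in fasting by PPAR-alpha, FoxO1 and glucocorticoids. Hilpda is a small protein of the lipid droplet that inhibits adipose triglyceride lipase and so holds triglyceride in the droplet. It is induced by fatty acids through PPARs and by low oxygen.

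Both genes lie on the chromosome 6 stretch, far apart from each other. Pdk4 (ENSMUSG00000019577.7) spans chr6:5483351-5496309 on the minus strand of GRCm38, and Hilpda (ENSMUSG00000043421.9) spans chr6:29272488-29275446 on the plus strand. Neither overlaps another annotated gene. The sequences just before their starts are shown because the 2 transcripts varied together across livers. They are the first 219 bases of each RefSeq promoter window (GRCm38.p6), which end 31 bases before the RefSeq start, 5′ to 3′. For Hilpda the RefSeq start is the first base of the span above. For Pdk4 it lies inside the span, so the printed run borders the span directly. Both genes matched the RefSeq table, and for Hilpda the upstream of 2 listed starts was used. Capitals mark the motif matches described next.
Pdk4, chr6:5496310-5496528, minus strand: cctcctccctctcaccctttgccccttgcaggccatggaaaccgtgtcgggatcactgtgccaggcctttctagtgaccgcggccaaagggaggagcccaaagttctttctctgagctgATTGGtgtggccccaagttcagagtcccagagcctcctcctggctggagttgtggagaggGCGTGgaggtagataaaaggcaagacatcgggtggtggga
Hilpda, chr6:29272238-29272456, plus strand: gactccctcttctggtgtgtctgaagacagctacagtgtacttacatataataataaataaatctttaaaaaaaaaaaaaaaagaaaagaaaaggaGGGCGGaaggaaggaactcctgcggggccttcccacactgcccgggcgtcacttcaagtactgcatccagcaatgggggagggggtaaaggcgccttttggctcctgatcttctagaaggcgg

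The Pdk4 run had 1 CCAAT box (CCAAT, found on the other strand as ATTGG) at base 120 and 1 hypoxia response core (ACGTG or GCGTG) at base 180. Windows of the same place and length hold these in 30.8% and 34.7% of 32544 RefSeq promoters. The Hilpda run had 1 GC box (GGGCGG, in 28.5% of the windows) at base 97. No match in either run was found for the nuclear receptor half-site AGGTCA (12.5% of the windows), the FoxO core GTAAACA (2.81%) or the E-box CACGTG (4.97%, a motif that contains ACGTG). All motifs were searched on both strands. GC content was 58.9% in the Pdk4 run and 47.0% in the Hilpda run, against a median of 52.1% over the windows.

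Row names were set against the counts around each gene. Of 14 genes of the stretch that liver is known to express, 2 (Ndufa4 and Atp6v1f) were among the genes used to find the stretch and so had to have high counts. The 12 others had a mean of at least 100 counts, among them the paraoxonase gene Pon1, the citrin gene Slc25a13 and the calcium-binding protein gene Calu. Of 12 genes restricted to other tissues, 0 reached 100 counts and 9 stayed under 10, with Lep, Dlx5, Tac1, Gpr37 and Pax4 at 0. Both lists were chosen with earlier results of these data known, so they describe the stretch and are no independent check. Hilpda sits between Lep and Calu, and Rbm28 and Impdh1 were its nearest tested neighbours on the side away from Calu. In 200-row windows around each gene (156 rows for Pdk4, near the chromosome end), counts fitted coding exons best at a shift of 0 bp. The stretch had been kept because the same scan gave it a shift within 1000 bp. The windows share rows with it, so their shift is no separate check of the names. Vps50 with a mean of 1157 counts and Copg2 with 422 lie just inside the edges of the stretch, which the search itself set. Hepacam2 with 3.5 and Tsga13 with 0.375 lie just outside. These 4 values describe the edges and are no check of the names. The row named Sost, on chromosome 11, lies outside the stretches where names hold and had 0 counts in all 8 libraries, so the altered gene itself is not analysed here.

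Libraries held 9919069 to 14932773 counts in Sost-/- and 9578086 to 14613316 in SostPB/-. Mitochondrial rows took 47.4% to 59.2% of counts in Sost-/- and 54.7% to 64.3% in SostPB/-. Levels are in CPM, counts relative to library totals that TMM scaling had adjusted for composition. In liver RNA, fewer cells of a type and less RNA per cell cannot be told apart.

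Pdk4 was abundant and varied more than most genes between livers of the same genotype. Its counts were 46938, 9930, 51688 and 14883 in Sost-/- replicates 1 to 4, which is 3538, 863, 4376 and 1281 CPM. In SostPB/- replicates 1 to 4 they were 6682, 31069, 3152 and 4601, which is 679.9, 2300.1, 367 and 462 CPM. Replicates 1 and 3 of Sost-/- and replicate 2 of SostPB/- were high, and 3 of the 4 SostPB/- livers lay below every Sost-/- liver. The groups overlapped through SostPB/- replicate 2, which stood above Sost-/- replicates 2 and 4.

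Sost-/- livers averaged 2515 ± 1709 CPM of Pdk4, and SostPB/- livers 952 ± 908 (SD, n = 4). On the log2 scale SostPB/- minus Sost-/- came to -1.40 (standard error 0.65), which did not pass in edgeR's quasi-likelihood test (adjusted p over all rows = 0.785). Of all 10020 rows in the fit, 0 (0%) came under an adjusted p of 0.05, and 646 (6.45%) came under 0.05 before adjustment. For the 494 tested rows in stretches where names hold, the mitochondrial genome included, these were 0 (0%) and 46 (9.31%). DESeq2 called 53 rows, with neither gene among them. Without SostPB/- replicate 2 the log2 fold change of Pdk4 was -2.32 (SE 0.56, edgeR adjusted p = 0.432), and over the leave-out fits of all libraries it ran from -2.32 to -0.999.

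Hilpda was a less abundant transcript and had nearly the same group means. Its counts were 767, 244, 633 and 400 in Sost-/- replicates 1 to 4, or 57.8, 21.2, 53.6 and 34.4 CPM. SostPB/- replicates 1 to 4 had 382, 1177, 169 and 299 counts, or 38.9, 87.1, 19.7 and 30.0 CPM. The highest and the lowest of all 8 livers, replicates 2 and 3, were both SostPB/-, so the Sost-/- range lay inside that of SostPB/-. Hilpda averaged 41.8 ± 17.1 CPM in Sost-/- livers and 43.9 ± 29.9 in SostPB/- livers (SD, n = 4). In the edgeR fit this was a log2 fold change of 0.08 (SE 0.44, adjusted p = 0.992). With SostPB/- replicate 2 left out it was -0.50 (SE 0.36, edgeR adjusted p = 0.909). The sign of so small a difference also turned without Sost-/- replicate 2, at -0.14, or without Sost-/- replicate 4, at -0.01, and with library totals in place of TMM, at -0.08.

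**Figure D1:**
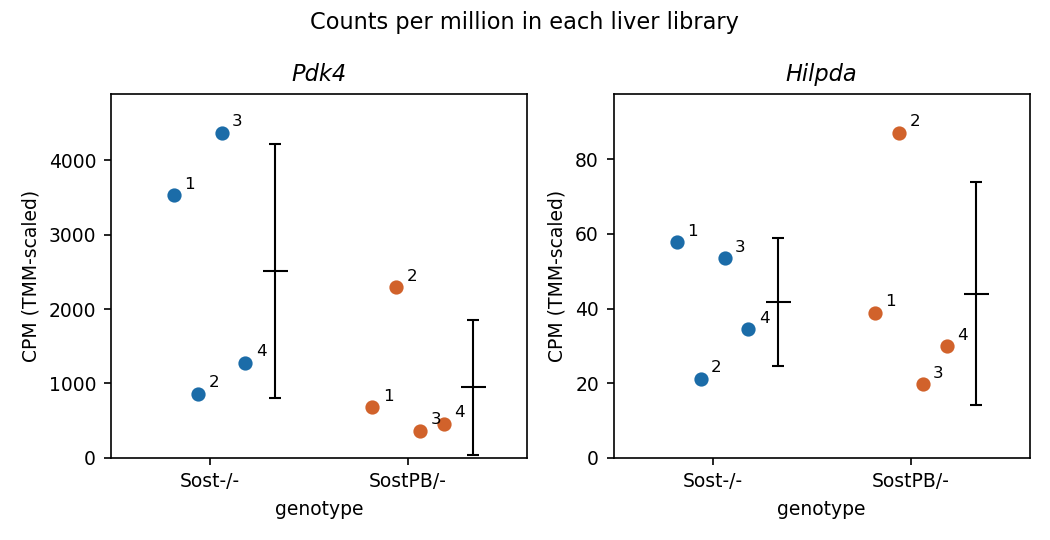
CPM (vertical axes, from 0) of Pdk4 and Hilpda in each liver library, by genotype; points are libraries labelled with replicate numbers, and bars show the mean ± SD of 4. Replicates 1 and 3 of Sost-/- and replicate 2 of SostPB/- are high in both panels, while the means of Hilpda, 41.8 and 43.9 CPM, lie close together.

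Per kilobase of exon (3511 bases for Pdk4 and 1103 for Hilpda), Pdk4 stood at 716 CPM per kb in Sost-/- and 271 in SostPB/-, and Hilpda at 37.9 and 39.8. By this level over all libraries, Pdk4 was number 7 of 328 nuclear genes with readable names and at least 50 mean counts, at 494 CPM per kb. Hilpda was number 120, at 38.8, and the median of the 328 was 20.8 CPM per kb.

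The spread between livers of 1 genotype was wide for both genes. From the lowest to the highest liver Pdk4 differed 5.07-fold within Sost-/- and 6.27-fold within SostPB/-, and Hilpda 2.73-fold and 4.43-fold. The SD of log2 CPM about the genotype means was 1.16 for Pdk4 and 0.79 for Hilpda, against a median of 0.26 over the 328 genes. Pdk4 ranked number 8 and Hilpda number 16 by this spread. At the depth of Hilpda, 169 to 1177 counts per library, counting error is small beside these differences. Zfp37 (SD 3.46) and Ndufa5 (SD 3.43) headed the order of spread among the 328 genes. How much of the spread of a row comes from the assignment of reads to rows was not tested.

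**Figure D2:**
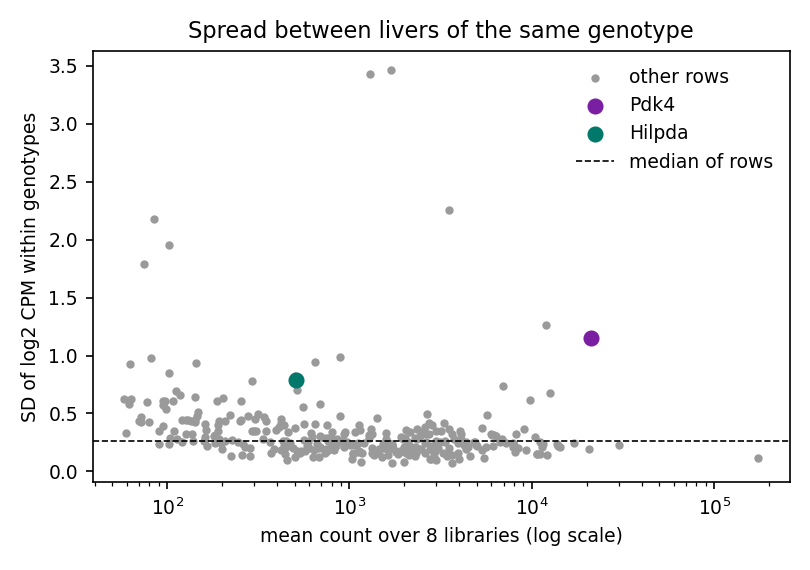
SD of log2 CPM within genotypes (vertical axis) against the mean count over 8 libraries (horizontal log axis) for 328 readable nuclear genes. Pdk4 (1.16) and Hilpda (0.79) lie above the dashed median of 0.26.

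The same livers were high in both genes. Over the 8 libraries the log2 CPM of Pdk4 and Hilpda had a Pearson r of 0.79 and a Spearman rho of 0.79. Without the 2 libraries farthest from the Pdk4 median, Sost-/- replicates 1 and 3, r was again 0.79. Once each value was taken as its distance from its own genotype mean, r was 0.96 (n = 8 libraries). By that measure Hilpda was the closest of 327 other genes to Pdk4, and Pdk4 the closest to Hilpda, where the median r was -0.11 and -0.12. By the r over plain levels they were number 6 and number 5 in each other's order. These points share library depth and composition, and no p is given because the pair was chosen with this relation known. The mitochondrial share of counts, which ran higher in SostPB/-, had an r of -0.37 with Pdk4 and -0.05 with Hilpda over plain levels, and of 0.07 and -0.03 over deviations. Its part in the levels of the pair was not tested.

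**Figure D3:**
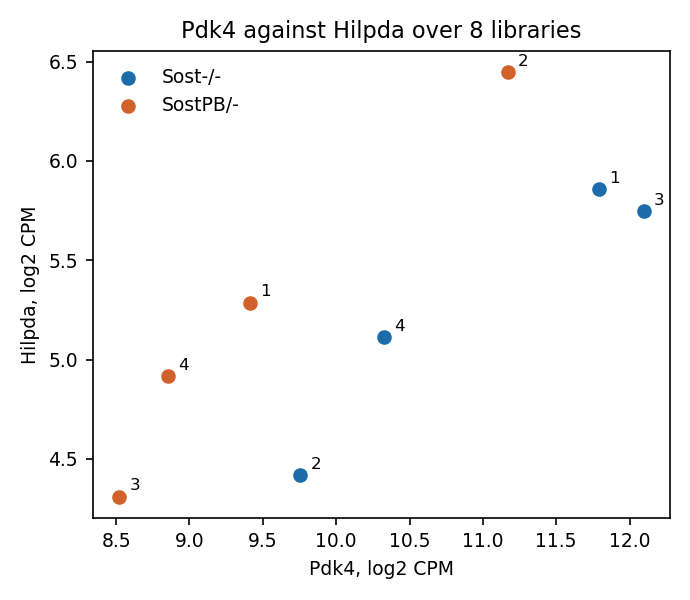
Log2 CPM of Hilpda (vertical axis) against log2 CPM of Pdk4 (horizontal axis); each point is 1 library, coloured by genotype and labelled with its replicate number. Livers with more Pdk4 mostly have more Hilpda within each genotype (r of 0.96 over deviations from the genotype means), and the SostPB/- points lie to the left of the Sost-/- points at like levels of Hilpda.

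Relative to Hilpda, Pdk4 was lower in every SostPB/- liver than in any Sost-/- liver. There were 61.2, 40.7, 81.7 and 37.2 Pdk4 counts for each Hilpda count in Sost-/- replicates 1 to 4. In SostPB/- replicates 1 to 4 there were 17.5, 26.4, 18.6 and 15.4. This ratio is taken within a library, so library scaling does not enter it. Its log2 was 5.71 ± 0.53 in Sost-/- and 4.25 ± 0.33 in SostPB/- (SD, n = 4), a difference of -1.46 or a 2.75-fold lower ratio. Leaving out each library in turn gave differences from -1.62 to -1.25.

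The ratio was looked at after the values were seen, and it comes from the same contrast that was known when the pair was chosen, so it carries no test. For comparison, the ratios of the other 321 readable genes with counts in all libraries to Hilpda had groups without overlap in 0 cases (0%). Set against Pdk4 instead, 1 of the 321 (0.312%) had no overlap, the ribosomal protein gene Rpl30. Both genes varied widely within genotypes (SD of log2 CPM 1.16 and 0.79), and ratios of unrelated genes to them carry that spread. With Hilpda the median r over deviations was -0.12, against 0.96 for Pdk4, and the pair was chosen with its joint variation known. These shares are therefore no measure of how rare the separation of the Pdk4 to Hilpda ratio is. By CPM alone, 20 of 494 rows (4.05%) had groups without overlap, and neither Pdk4 nor Hilpda was among them. In 1 of the 321 ratios to Hilpda the mean difference between genotypes was larger than for Pdk4. Hilpda itself differed little (log2 fold change 0.08), so this order largely restates the -1.40 of Pdk4. That contrast was known when the pair was chosen, so the order is no measure of rarity either.

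**Figure D4:**
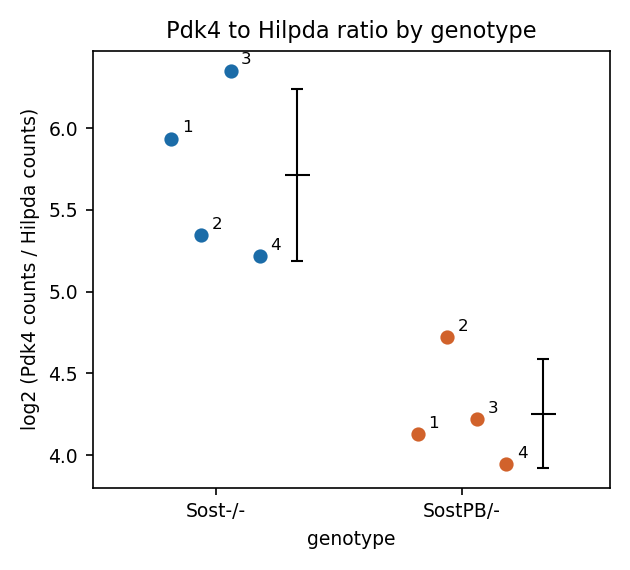
Log2 of Pdk4 counts over Hilpda counts in each library (vertical axis, not from 0) by genotype; points are libraries labelled with replicate numbers, and bars show the mean ± SD of 4. The Sost-/- livers lie between 5.22 and 6.35 and the SostPB/- livers between 3.94 and 4.72.

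Few other genes of the same pathways could be read. Of 110 further genes in 5 lists (pyruvate dehydrogenase and its control, lipid droplets and lipolysis, fasting and PPAR-alpha targets, FoxO and glucocorticoid response, hypoxia), 6 lie where names hold. Of these 5 were tested and 0 passed in either direction by edgeR, with a median log2 fold change of 0.02 against -0.01 over all rows. The lists cannot be described by their counts beyond that, since each has 1 tested gene besides the pair.

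Pdp1, the phosphatase that switches pyruvate dehydrogenase back on and so opposes Pdk4, averaged 14.7 ± 1.89 CPM in Sost-/- livers and 14.6 ± 2.41 in SostPB/- livers (SD, n = 4), which gave a log2 fold change of -0.01 (SE 0.20). Single libraries lay between 12.1 and 16.4 CPM in Sost-/- and between 12.04 and 17.1 in SostPB/-, where Pdk4 spanned 5.07-fold and 6.27-fold. Over deviations from the genotype means, Pdp1 had an r of 0.59 with Pdk4 and 0.40 with Hilpda. Decr1, an enzyme that prepares unsaturated fatty acids for beta-oxidation and a PPAR-alpha target, stood at 979 ± 132 and 990.4 ± 66.8 CPM (SD, n = 4), with a log2 fold change of 0.02 (SE 0.14). Deviations of Decr1 from the genotype means had an r of 0.38 with those of Pdk4 and 0.40 with those of Hilpda.

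Aqp7, a channel that lets glycerol out of fat-storing cells, had 8.27 ± 3.97 and 8.61 ± 1.505 CPM (log2 fold change 0.06, SE 0.37) and an r of -0.07 with Pdk4 and -0.14 with Hilpda over deviations. Aqp3, of the same family, had a mean of 3.62 counts and was not tested. Car9, a carbonic anhydrase induced by low oxygen, was low at 2.48 ± 1.20 and 1.43 ± 1.13 CPM (log2 fold change -0.79, SE 0.68). Its deviations had an r of 0.01 with Pdk4 and -0.07 with Hilpda. Nr4a3, a nuclear receptor of the early hormone response, had 2.62 ± 2.42 and 5.11 ± 3.78 CPM (SD, n = 4), for a log2 fold change of 0.97 (SE 0.70). The r of Nr4a3 over deviations was 0.68 with Pdk4 and 0.53 with Hilpda, at a mean of 45 counts. In the edgeR fit the adjusted p of these 5 genes ran from 0.945 to 0.999.

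Genes whose levels over the 8 libraries were most like those of Pdk4 were looked for among the readable nuclear genes. They are the extremes of 327 correlations over only 8 libraries, so sharing the high livers of Pdk4 is part of how they were chosen. C9orf72, a regulator of membrane traffic and autophagy, had the highest r, 0.93, and 0.93 over deviations from the genotype means as well. Replicates 1 to 4 had 332, 185, 444 and 273 CPM of C9orf72 for Sost-/-, against 140, 209, 122 and 100.02 CPM for SostPB/-. As with Pdk4, replicates 1 and 3 of Sost-/- and replicate 2 of SostPB/- were the high livers of their groups. Trp53inp1, a stress protein induced by p53, followed with an r of 0.92 (0.88 over deviations). Sost-/- livers held 1189, 587, 1611 and 954 CPM of it in replicate order, against 366, 967, 430 and 546 CPM for SostPB/-. Pnrc1, a coactivator of nuclear receptors, had 0.90 (0.93), Slc25a51, the carrier of NAD into mitochondria, 0.87 (0.82), and Glipr2, of the Golgi membrane, 0.81 (0.74).

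At the other end, Mms22l, of replication fork repair, had an r of -0.90 with Pdk4 (-0.83 over deviations), Tstd3 -0.83 (-0.76) and the secreted peptidase gene Cpq -0.82 (-0.79). For the 5 genes at the top of this order, log2 fold changes were -1.11 (SE 0.29) for C9orf72, -0.91 (SE 0.35) for Trp53inp1, -0.92 (SE 0.23) for Slc25a51, -0.46 (SE 0.42) for Glipr2 and -0.23 (SE 0.22) for Pnrc1. None of them passed in edgeR, with adjusted p from 0.540 to 0.958.

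By the r over plain levels, Hilpda had another set of nearest genes. They were Gng11, a G protein gamma subunit, with an r of 0.88, Ugcg, which makes glucosylceramide, with 0.87, Rbm12b2 with 0.86, the chromatin remodeller Chd7 with 0.79, and Pdk4. Over deviations their r was 0.88, 0.87, 0.86 and 0.81, against 0.96 for Pdk4. Plain levels carry the genotype difference, a log2 fold change of -1.40 for Pdk4 and 0.08 for Hilpda. Both lists were ordered by plain levels, so whether the pair has different nearest genes within genotypes was not tested. The lowest r was that of Smo, the signal transducer of the Hedgehog pathway, at -0.95 (-0.95 over deviations). Smo had 20.1, 43.7, 24.0 and 33.6 CPM in the Sost-/- livers in replicate order, and 30.1, 19.6, 38.2 and 37.4 CPM in the SostPB/- livers. As its choice by r implies, it was lowest in the livers where Hilpda was highest. Gba2, which breaks down glucosylceramide, had -0.86 (-0.87) and the golgin Gcc1 -0.78 (-0.78). Of these genes the largest log2 fold change between genotypes, leaving out Pdk4, was -0.10 for Chd7 (SE 0.17, edgeR adjusted p = 0.981).

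**Figure D5:**
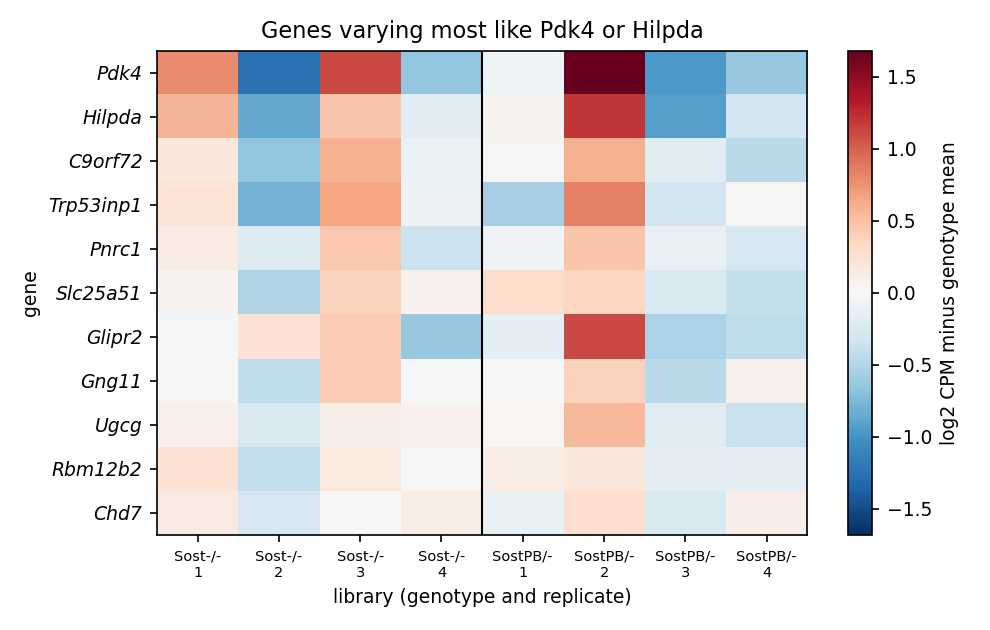
Log2 CPM minus the genotype mean (colour) for Pdk4, Hilpda and the genes most like either (rows) in the 8 libraries (columns, Sost-/- left of the line). Pdk4 and Hilpda are well above their genotype means in Sost-/- replicates 1 and 3 and SostPB/- replicate 2, and the other genes mostly shift the same way by less.

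Rows next to the pair on the chromosome were compared with them as well. Asb4, the nearest tested row on the lower side of Pdk4 (chr6:5383386-5433022), had only 3.62 ± 1.96 and 2.99 ± 1.15 CPM (SD, n = 4), and its deviations had an r of 0.88 with those of Pdk4. Fam71f2, whose start lies 7105 bases beyond that of Hilpda, had 2.60 ± 1.52 and 2.49 ± 3.09 CPM and an r of 0.79 with Hilpda. Neighbours with more counts had lower r. On the Pdk4 side r was 0.27 for Pon2, -0.08 for Slc25a13 and 0.58 for the proteasome subunit gene Sem1. On the Hilpda side r was 0.20 for Impdh1, of guanine nucleotide synthesis, -0.35 for Rbm28, -0.45 for Calu and 0.20 for the proton pump gene Atp6v1f. The predicted genes Gm44424, Gm5873 and Gm37940 were the other nearest rows, at r of -0.19, -0.84 and 0.03. Whether reads beyond the end of a gene reached the next row was not tested.

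Markers of the cell types that a piece of liver can hold were set beside these results. Of 36 markers 16 were tested in readable rows and 0 passed in edgeR. The 7 readable hepatocyte markers (Pon1, Pon3, Cyp7a1, Baat, Grhpr, Met, Prlr) all had at least 100 counts, and their summed level ran from 3763 to 4551 CPM in Sost-/- and from 3764 to 4979.7 in SostPB/-. Of the adipocyte markers Lep had 0 counts in all 8 libraries, which allows up to 3 counts in each, and Aqp7 is given above. The fibroblast pair Col1a2 and Col15a1 summed to 92.7 to 177 CPM in Sost-/- and 103 to 169 in SostPB/-. The endothelial pair Cav1 and Cav2 summed to 19.3 to 29.4 and 22.2 to 28.2 CPM. Irf5, for macrophages, ran from 43.6 to 68.0 and from 36.3 to 56.0 CPM. Il7r, Cd72 and Pax5, for lymphocytes, summed to 59.4 to 100.5 and 51.2 to 74.1 CPM, and Sit1 was not tested, with a mean of 1.38 counts. Over deviations from the genotype means the highest r of a marker with Pdk4 was 0.58, for Col1a2, and the lowest -0.67, for Baat. The part of these cell types in the levels of Pdk4 and Hilpda was not tested.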

How the data were processed

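Poly-A RNA of 8 mouse livers was sequenced, 4 Sost-/- and 4 SostPB/-. HISAT2, StringTie and DESeq2 with mm10 are listed, per the submitters' processing notes; versions, annotation release and strand setting were not stated. The authors deposited whole-number counts for 55416 rows. The authors also deposited a normalized signal per gene for 22883 rows: the counts divided by 1 factor per library (0.782 to 1.24). After multiplication, 100% of its values above 0 were whole within 0.01, and the 22469 rows matched by unique symbol equalled the counts. Tests used the counts, and the recovered reads were an added alternative, with 0 rows called. Groups came from titles and columns from descriptions.

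Rows were placed by ID on GENCODE M21 (GRCm38). Because row names and counts disagreed over most of the table, runs of 796 genes from families that every cell uses were scored (mean of 100 counts, assumed shares 0.95 inside and 0.15 outside, minimum score 5). A run was kept when counts fitted coding exons within a shift of 1000 bp (steps of 50 bp up to 1500000 bp each way). Kept runs were chromosome 4 (3831334 to 62426990), 6 (3498382 to 30896794) and 15 (8109273 to 35938246), with 1433 rows. A narrower set of 429 genes, tried first, put the chromosome 6 run at 11900292 to 39603382, without Pdk4, and found no run on chromosome 15; the families were then widened with the stretch in the rule for the pair known. Among coding genes not used to find runs, 53.8% reached 100 counts in the chromosome 6 stretch and 15.2% outside all stretches.

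The test was edgeR's quasi-likelihood test (edgeR 4.0.16, R 4.3.3) after filterByExpr and TMM scaling, for SostPB/- over Sost-/-, Benjamini-Hochberg adjustment over all 10020 rows tested, threshold 0.05. Standard errors are the log2 fold change over the square root of F. Log2 CPM used a prior count of 2. DESeq2 1.42.0, limma 3.58.1 and other scalings, filters and left-out libraries were alternatives. Likeness was Pearson r over 8 libraries among 328 nuclear genes in kept runs with a mean of at least 50 counts, predicted genes and pseudogenes left out; the 5 highest and 3 lowest per gene were named, with list members, and the 3 nearest tested rows on each side. The pair, the lists and the rules were chosen with earlier results of these data known, and the Pdk4 to Hilpda ratio after seeing the values. Labels number the mice as biological replicates. Scripts were tested on simulated data. With row dispersions taken from these libraries, edgeR recovered 5% of planted 2-fold and 51% of planted 4-fold changes. A row that did not pass may therefore still differ between the genotypes. A further hepatocyte marker, in none of the counts given, is not reported here.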

Additional observations from a re-analysis of the deposited data

Results flagged for a closer look

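In 112 sets of 4 values (each described gene in each genotype, and the Pdk4 to Hilpda ratio), the gap from the most distant library to the nearest of the others was compared with the range of the group. In 7 of the 112 sets the gap stood out, which is near the 1 in 20 that chance gives. The sets are listed as descriptions only. Pdk4 was high in SostPB/- replicate 2, at 2300.1 CPM against 367 to 679.9 in the other 3, and so was Glipr2, at 8.74 against 2.68 to 3.56 CPM. Sost-/- replicate 3, the highest liver in Pdk4, was high in Sem1, at 162 against 96.2 to 105 CPM. The same library was low in Cpq, at 52.6 against 66.0 to 67.5 CPM, and in Tstd3, at 51.3 against 73.1 to 77.1 CPM. Ugcg was low in Sost-/- replicate 2, the Sost-/- liver lowest in Hilpda, at 170.2 against 214.0 to 219 CPM. Glipr2, Cpq, Tstd3 and Ugcg were named for their high or low r with Pdk4 or Hilpda. That they stand out in the extreme livers of the pair follows in part from that choice. Grhpr was high in SostPB/- replicate 1, at 311 against 217 to 229 CPM.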

How the results depend on the processing

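Pdk4 kept a negative log2 fold change in all 18 alternative fits and passed in none, with edgeR, DESeq2 or limma adjusted p from 0.432 up; leaving out libraries gave -2.32 to -0.999 and the other settings -1.63 to -1.39. Hilpda turned to -0.082 with library totals alone, a scaling that moved the median of all rows by -0.19, to -0.023 with limma-voom and sample weights, and to -0.094 with the replicate block; leaving out libraries gave -0.50 to 0.32. With the replicate block Pdk4 was at -1.63 and 0 rows were called. Same-numbered libraries of the genotypes had deviations correlated at -0.24, 0.13, -0.03 and 0.06, and 1 of 4 correlated best with its own number. Little likeness was thus seen between libraries of the same number, which cannot settle whether the numbers pair the mice. The labels do not state a pairing. The number of rows called was 0, but 2 without a filter, 1 with at least 10 counts in every library, 53 with DESeq2, 1 with limma-voom, and 0 to 4 without single libraries; the cause was not tested. The relation of Pdk4 and Hilpda kept a Pearson r of 0.71 to 0.84, a rho of 0.68 to 0.86 and an r over deviations of 0.93 to 0.98 across 13 alternatives. With 4 livers per genotype, replicate spread and not depth limits both fold changes.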
